A study of Mus musculus with 4 samples.

Results

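Granzymes are serine proteases that cytotoxic lymphocytes store in secretory granules and release onto a target cell, where perforin opens the way for them into the cytosol. The 8 genes described here belong to that machinery and were chosen by name. Gzma, Gzmb and Gzmk encode the tryptase-like granzyme A, the aspartate-cleaving granzyme B and the tryptase-like granzyme K. Prf1 encodes perforin, the pore-forming protein. Nkg7 encodes a granule membrane protein that takes part in granule release. Ctsw encodes cathepsin W, a cysteine protease typical of cytotoxic lymphocytes, and Cst7 encodes cystatin F, an inhibitor that restrains the cathepsins that activate granzyme precursors. Fasl encodes Fas ligand, a membrane protein that triggers cell death through the receptor Fas, without granule proteases. CD8+ T cells and natural killer (NK) cells are the usual source of these products, and some CD4+ T cells also make them. All 8 were found among the 33696 genes of the deposited tables.

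The cells came from wild-type C57BL/6 mice with experimental autoimmune encephalomyelitis (EAE), a model of central nervous system inflammation induced by immunization, 60 days after immunization. Conventional CD4+ T cells that were CD44+ and GITR-, a gate for antigen-experienced cells outside the regulatory subset, were sorted from brain and from spleen. Each tissue gave 1 library for RNA, with 1 unique molecular identifier (UMI) counted per captured transcript, and 1 library for T cell receptor (TCR) chains, so there was no replicate, no untreated mouse and no test between groups. How many animals went into a library is not stated in the labels. Every interval below is an exact 95% interval and covers counting error only.

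After filtering, 3948 brain cells with 41156073 UMIs and 7997 spleen cells with 60454806 UMIs were analysed. The median cell held 9840 UMIs in brain and 7190 in spleen, and both receptor chains were found in 79.3% of brain and 84.2% of spleen cells. The labelled cell type was checked against its markers. A Cd3e UMI was found in 93.9% of brain and 94.7% of spleen cells, and a Cd4 UMI in 86.2% of brain and 81.6% of spleen cells. Transcripts that mark other cells were also found. A UMI of Foxp3, the regulatory T cell factor, was present in 265 brain cells (6.71%) and 953 spleen cells (11.9%). A UMI of Cd8a or Cd8b1, the chains of the CD8 co-receptor, was present in 262 brain cells (6.64%) and 532 spleen cells (6.65%). Most of these had Cd8b1 without Cd8a, 224 in brain and 507 in spleen, and a Cd4 UMI was found in 89.7% of those brain and 87.4% of those spleen cells. Cd8a itself was found in 38 brain and 25 spleen cells, of which 73.7% in brain and 36.0% in spleen had Cd4. The brain and spleen libraries shared 31 cell barcodes.

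The 3 granzyme genes are shown by the 250 bases before their transcription start, because their levels separated by cell cluster, as described further on. The sequences and positions are those of RefSeq on build GRCm38.p6, and capitals mark 3 motifs that were searched on both strands: TGTGGT, the core bound by RUNX factors, GGTGTGA, bound by T-box factors such as T-bet and Eomes, and TGANTCA, bound by AP-1.
Gzma, chr13:113100982-113101231, minus strand: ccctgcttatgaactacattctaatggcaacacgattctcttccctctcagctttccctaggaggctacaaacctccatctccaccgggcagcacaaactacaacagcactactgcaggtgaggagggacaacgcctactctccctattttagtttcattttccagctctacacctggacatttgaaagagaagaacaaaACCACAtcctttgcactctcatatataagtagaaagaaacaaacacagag
Gzmb, chr14:56262335-56262584, minus strand: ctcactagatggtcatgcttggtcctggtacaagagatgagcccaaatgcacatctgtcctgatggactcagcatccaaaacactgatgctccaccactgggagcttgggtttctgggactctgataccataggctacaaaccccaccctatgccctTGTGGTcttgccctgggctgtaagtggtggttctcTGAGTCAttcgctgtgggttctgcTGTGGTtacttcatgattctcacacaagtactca
Gzmk, chr13:113180966-113181215, minus strand: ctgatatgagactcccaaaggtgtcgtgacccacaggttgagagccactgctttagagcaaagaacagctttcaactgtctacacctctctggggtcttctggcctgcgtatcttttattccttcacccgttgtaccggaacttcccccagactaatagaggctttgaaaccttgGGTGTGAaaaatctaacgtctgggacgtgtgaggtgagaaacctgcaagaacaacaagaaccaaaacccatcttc

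The Gzma promoter held the RUNX letters on the opposite strand (ACCACA), the Gzmb promoter held the RUNX letters at 2 places and the AP-1 letters once, and the Gzmk promoter held the T-box letters. Promoter sequences were matched for 7 of the 8 genes. The RUNX letters were present in 5 of these 7 (Gzma, Gzmb, Prf1, Nkg7 and Cst7) and in 14.2% of 27025 promoters. The T-box letters were present in Gzmk and Nkg7 and in 3.31% of promoters, and the AP-1 letters in Gzmb and in 6.87%. A match describes letters in this window and is not evidence of binding.

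The summed level of 6 of the 8 genes was higher in brain than in spleen, Prf1 was lower in brain, and Cst7 was near the same level in both. Levels are UMI counts scaled to the library total (CPM) and summed over all its cells. A call needed a 1.5-fold difference in CPM, an interval that excludes 1 and at least 10 CPM in the higher group. By this rule, 9.79% of 8640 genes were higher in brain and 8.67% were lower. The median log2 ratio was 1.52 over the 8 genes and -0.09 over all genes tested.

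All 3 granzymes were higher in brain. Gzma reached 23.9 CPM in brain, against 6.19 CPM in spleen, 3.86 times the level (interval 3.43 to 4.37). Gzmb reached 32.5 CPM in brain, against 11.6 CPM in spleen, 2.81 times the level (2.56 to 3.08). Gzmk reached 48.1 CPM in brain, against 10.4 CPM in spleen, 4.61 times the level (4.21 to 5.05). The Gzma ratio moved more than that of any other member with the choice of cells. It was 2.01 and below the 10 CPM minimum with paired receptors only, and 16.3 without the clusters led by Cx3cr1. Perforin ran the other way, with 9.55 CPM of Prf1 in brain, against 23.3 CPM in spleen, 0.41 times the level (0.366 to 0.459).

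Of the other 4 genes, Ctsw reached 361 CPM in brain, against 110 CPM in spleen (ratio 3.28, 3.19 to 3.38). Fasl reached 128 CPM in brain, against 43.6 CPM in spleen (ratio 2.94, 2.81 to 3.08). Both ratios were larger without the TRAV11-TRAJ18 cells described below, at 5.60 for Ctsw and 5.49 for Fasl. Nkg7 reached 403 CPM in brain, against 219 CPM in spleen (ratio 1.84, 1.80 to 1.88), short of a 2-fold limit. Cst7 had 53.1 CPM in brain, against 59.1 CPM in spleen, and its ratio of 0.899 (0.852 to 0.949) did not meet the rule.

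**Figure D1:**
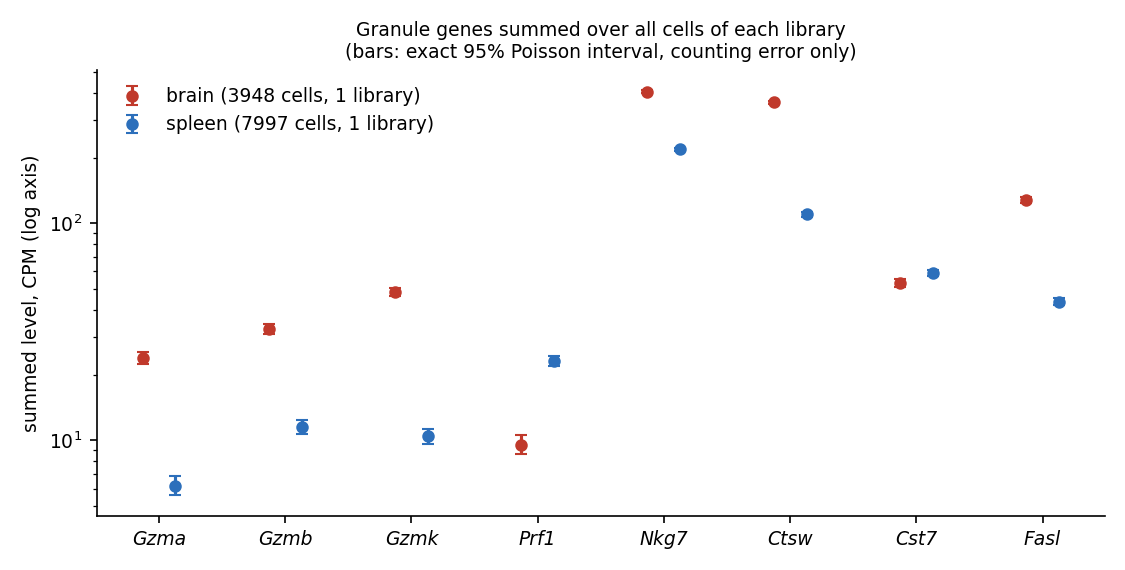
Summed level of the 8 genes in CPM (log axis) in brain (left point of each pair) and spleen (right point), 1 library each, with exact 95% Poisson intervals for counting error. Brain lies above spleen for Gzma, Gzmb, Gzmk, Nkg7, Ctsw and Fasl, below it for Prf1 (9.55 against 23.3 CPM), and close to it for Cst7.

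The share of cells with a UMI followed the same directions once each cell was thinned to 3000 UMIs, which left out 226 brain and 535 spleen cells. Gzmk was then detected in 8.01% of brain and 1.43% of spleen cells, against 14.1% and 2.21% before thinning. Gzmb was detected in 3.01% of brain and 1.09% of spleen cells, against 4.74% and 1.56% before thinning. Gzma was detected in 1.21% of brain and 0.469% of spleen cells, against 1.67% and 0.688%. Perforin mRNA was found in 2.50% of brain and 6.58% of spleen cells, against 6.94% and 12.7% before thinning. The widespread genes were Nkg7 (38.2% of brain and 17.6% of spleen cells), Ctsw (46.6% and 18.3%) and Fasl (28.1% and 9.68%), each more frequent in brain. Cst7 was found in 13.5% of brain and 14.3% of spleen cells. Free RNA was gauged in 148 spleen barcodes with B cell genes and no receptor pair (median 5394.5 UMIs, against 7190 in spleen T cells). Each of Gzma, Prf1, Ctsw and Fasl had a UMI in 1 of these barcodes (0.676%, exact binomial interval 0.0171% to 3.71%), and none had Gzmb, Gzmk, Nkg7 or Cst7. The 0.688% of spleen cells with Gzma lies within that interval, so it cannot be told from background at this number of barcodes. The exact upper bound for none in 148 barcodes also lies above the 1.56% of spleen cells with Gzmb and the 2.21% with Gzmk. This control thus cannot tell those shares from background either, and spleen Gzma, Gzmb and Gzmk rest on their levels per cell and cluster. The brain control held only 13 barcodes with myeloid genes, of which 11 also had Cd3e, so it was not a T cell-free control. None of the 13 had a granzyme or Prf1 UMI.

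Granzyme transcripts came from few cells. In brain, Gzma had 984 UMIs in 66 cells, and 4 cells held at least 50% of them. The cell with most had 281 Gzma UMIs of its 20838 in all, or 28.6% of the gene's total, and carried 18 Cd3e UMIs, 8 Cd4 UMIs, 1 Cd8b1 UMI and no receptor chain. The next cells had 127 and 74 UMIs. Without the top cell of each tissue, the ratio of brain to spleen was 3.26. Cells in which no receptor chain was found made up 15.4% of brain cells and held 449 Gzma UMIs (45.6%). Of these UMIs, 281 came from the top cell and 74 from the third cell, which also had no receptor chain. The part that incomplete receptor capture plays in the Gzma values was not tested. In spleen, 374 Gzma UMIs lay in 55 cells and 6 cells held at least 50%. The top spleen cell, with 57 Gzma UMIs, had no receptor chain, no Cd3e and no Cd4 UMI, 4 UMIs of the NK receptor gene Ncr1, 4 of Eomes and 9 of Prf1, genes that NK cells express. It was the only spleen cell with an Ncr1 UMI, and no brain cell had one.

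Gzmb and Gzmk were spread over more cells. Brain Gzmb had 1336 UMIs in 187 cells, with at least 50% in 22 cells and maxima of 64, 64 and 63 UMIs. The top 2 brain Gzmb cells had 14 Cd8a UMIs each beside 6 and 9 Cd4 UMIs, and the next one was a TRAV11-TRAJ18 cell. Spleen Gzmb had 699 UMIs in 125 cells, with at least 50% in 12 cells. The top spleen cell had 63 Gzmb UMIs and 76 of the proliferation gene Mki67, and the next had 48 Gzmb UMIs and 6 of Foxp3. Brain Gzmk had 1980 UMIs in 558 cells, none above 30 UMIs, and 94 cells held at least 50%. Spleen Gzmk had 631 UMIs in 177 cells, of which 30 held at least 50%. Many positive cells rested on 1 UMI: 209 of the 558 brain Gzmk cells, 53 of the 187 Gzmb cells and 23 of the 66 Gzma cells.

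**Figure D2:**
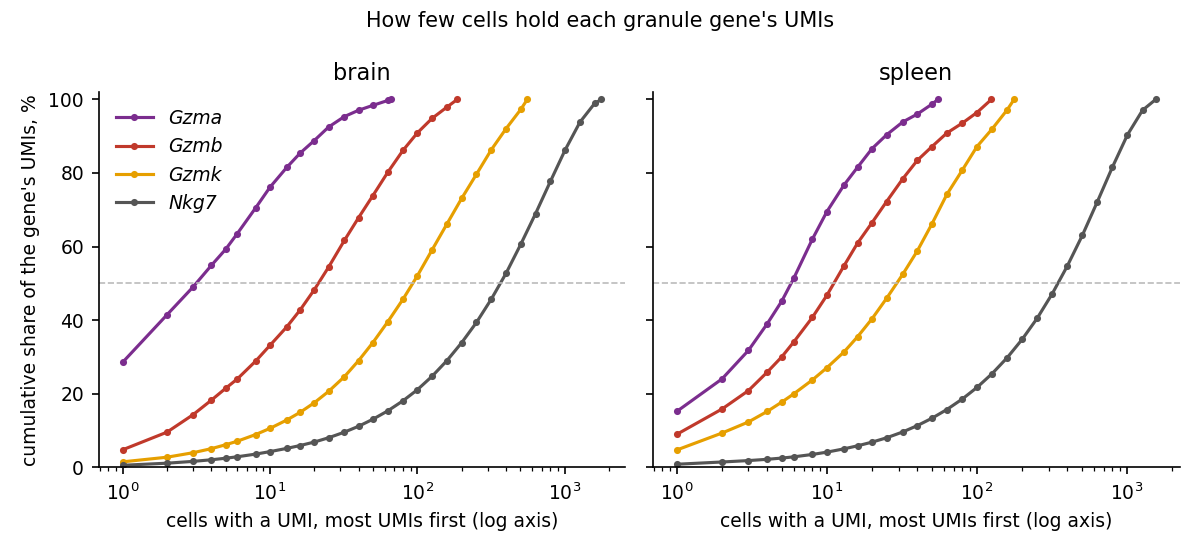
Cumulative share of a gene's UMIs (%) against the number of cells counted from the highest (log axis), for Gzma, Gzmb, Gzmk and Nkg7 in brain (left) and spleen (right), with a dashed line at 50%. The Gzma curve passes 50% at 4 brain and 6 spleen cells, and the Gzmk curve at 94 brain and 30 spleen cells, while Nkg7 needs 368 brain cells.

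Cells with a Cd8a UMI held part of the brain Gzmb and Gzmk. These 38 cells, 0.963% of all, held 17.0% of the Gzmb UMIs, or 8.20% without the top 2 of them, 5.66% of the Gzmk UMIs and 0.508% of the Gzma UMIs. The 262 brain cells with a UMI of either CD8 chain held 24.7% of the Gzmb UMIs and 10.9% of the Gzmk UMIs, at 6.64% of cells. They also held 33.1% of the Gzma UMIs, of which 281 of 326 came from the top Gzma cell with its 1 Cd8b1 UMI, and 6.40% without that cell. In spleen the 532 such cells held 1.07% of Gzma, 5.58% of Gzmb and 12.7% of Gzmk. When cells with a UMI of Cd8a, Cd8b1, Ncr1 or the gamma-delta chain gene Trdc were left out, the top Gzma cell of each tissue among them, the ratios of brain to spleen were 3.07 for Gzma, 2.25 for Gzmb and 4.77 for Gzmk. The summed level of the 13 CD8, NK and gamma-delta T cell markers in the table was 279 CPM in brain Gzmb cells and 39.1 CPM in the other brain cells. It was 141 and 50.6 CPM for Gzma, and 108 and 42.4 CPM for Gzmk. In spleen it was 289 and 64.2 CPM for Gzma, 225 and 62.5 CPM for Gzmb, and 42.9 and 66.6 CPM for Gzmk. The spleen cell with Ncr1 described above also had 6 Gzmb UMIs and counts in both the Gzma and the Gzmb sum. Both groups had 4 UMIs of Ncr1 and 9 of Klra8, and spleen cells without Gzma had 0 of each. The part of this cell in the sums was not tested. TRAV11-TRAJ18 cells themselves summed to 307 CPM of these markers in brain and 398 CPM in spleen, with 0 UMIs of Cd8a. Klrb1c made up 356 CPM of that spleen sum and 114 CPM of the sum in spleen Gzmb cells. Brain Gzmb cells had 38.8 CPM of Klrb1c, beside 76.4 CPM of Cd8a and 105 CPM of Cd8b1. Of the 13 markers, 11 had a UMI in brain and 13 in spleen, and the NK genes Ncr1 and Klra8 were at 0 in brain.

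To see which cells held each granzyme, each library was clustered without the 8 genes. Gzma was highest in the cluster led by genes of Cx3cr1+ effector cells in both tissues. In brain this cluster of 41 cells was led by Klrg1, S1pr5, Ccl5 and Cx3cr1 and had 780 CPM of Gzma (interval 697 to 871), in 26.8% of its cells, and 482 CPM without its top cell. In spleen the matching cluster of 92 cells, led by Zeb2, S1pr5, Ccl5 and Cx3cr1, had 596 CPM (532 to 665) in 22.8% of its cells. That level includes the top spleen Gzma cell, with 57 Gzma UMIs, 4 Ncr1 UMIs and no Cd3e or Cd4 UMI. These clusters held 32.5% of the Gzma UMIs of brain and 84.0% of those of spleen. They also had the highest Nkg7 of their tissues, 2497 CPM in the brain and 2477 CPM in the spleen cluster, with Gzmb at 207 CPM in the brain and 56.9 CPM in the spleen cluster. The largest share of brain Gzma, 42.5%, lay in another cluster, 322 cells led by the chemokine genes Ccl3 and Ccl4. Its Gzma level was 107 CPM, or 35.2 CPM without the single top cell.

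Gzmb was highest in the brain cluster of natural killer T (NKT)-like cells. Its 142 cells were led by Klrb1c, Ly6c2 and Zbtb16, of which 76.1% carried the TRAV11-TRAJ18 chain, and had 271 CPM of Gzmb, 30.9% of the brain total. The Cx3cr1 effector-like cluster followed with 207 CPM, then the Eomes-led cluster with 119 CPM and the interferon response-like cluster (Ifit3, Rsad2, Mx1) with 116 CPM. The level of the interferon response-like cluster includes a cell with 64 Gzmb UMIs, 14 of Cd8a and 12 of Cd8b1. In spleen the proliferating-like cluster of 104 cells had 60.4 CPM, or 31.3 CPM without its top cell, and the Cx3cr1 effector-like cluster 56.9 CPM, or 32.6 CPM without its top cell. The spleen NKT-like cluster of 673 cells had 41.5 CPM and 30.3% of the Gzmb UMIs. The regulatory-like cluster led by Foxp3 had 50.7 CPM of Gzmb in brain, against 25.6 CPM in spleen, where it accounted for 23.3% of the UMIs. Of its Gzmb UMIs, 2 cells held 52 of 96 in brain and 83 of 163 in spleen, and without them the levels were 23.5 CPM in brain and 12.6 CPM in spleen. In naive-like clusters Gzmb was at 0 UMIs in brain (332 cells) and at 0.286% of the UMIs in spleen (2230 cells).

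Gzmk was highest in cells of another kind. The brain cluster of 92 cells led by Eomes, Cd8a, Cd8b1 and Esm1 had 987 CPM of Gzmk (918 to 1060), with a UMI in 93.5% of its cells, and held 38.1% of the brain Gzmk. It had both Cd4 (322 CPM) and CD8 transcripts (246 CPM of Cd8a and 394 CPM of Cd8b1) and was given no cell type name. A Cd4 UMI was found in 80.4% of the cluster's cells, a Cd8a UMI in 19.6% and a Cd8b1 UMI in 25%. Its Prf1 (99.4 CPM) was the highest of all brain clusters, and its Nkg7 reached 1676 CPM. The Th1-like brain cluster of 699 cells, led by Il12rb2, Zfp683 and Itga1, had 87.6 CPM of Gzmk in 36.8% of its cells and 31.97% of the UMIs. The ratio of brain to spleen for Gzmk was 3.34 without the clusters led by Eomes, Cd8a or Cd8b1. In spleen, a cluster of 119 cells led by Cd74, H2-Aa and other MHC class II genes, with Eomes and Cd8a among its leading genes, had 67.0 CPM. The Th1-like spleen cluster of 987 cells (Itgb1, S100a4, Cxcr3) had 49.6 CPM and 58.6% of the UMIs. That last share depended on the clustering and ranged down to 32.3% with another random seed. The Th17-like brain clusters had almost no granzyme: Gzmk was at 2.85 CPM and Gzmb at 3.99 CPM in the Il17a-led cluster, which had 0 UMIs of Prf1.

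Perforin transcripts had a separate distribution. The naive-like clusters, led by Igfbp4 and Dapl1, held 25.4% of the Prf1 UMIs of brain and 46.3% of those of spleen, where they made up 8.41% and 27.9% of cells. A Prf1 UMI was found in 23.2% of the naive-like cells of brain and 21.8% of those of spleen, against 0.676% of spleen B cell barcodes. The levels were 29.96 CPM in brain and 44.7 and 33.6 CPM in the spleen clusters. In the same cells Nkg7 held 6.29 CPM in brain and 1.66 and 4.10 CPM in spleen. In spleen the NKT-like cluster (71.4 CPM, 25.9% of UMIs) and the Cx3cr1 effector-like cluster (70.2 CPM) had the highest Prf1. The latter level includes 9 Prf1 UMIs from the spleen cell with Ncr1 described above. The lower Prf1 of brain stands beside a smaller share of naive-like cells, and the part of this share in the ratio was not tested.

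Nkg7, Ctsw and Fasl of spleen lay largely in the NKT-like cells. The spleen NKT-like cluster held 43.6% of the Nkg7 UMIs, 50.6% of the Ctsw UMIs and 56.2% of the Fasl UMIs of that tissue. In brain, Ctsw was highest in the NKT-like cluster (786 CPM), the Ccl3 and Ccl4 cluster (698 CPM) and the Th1-like cluster (616 CPM). Fasl was highest in the brain Cx3cr1 effector-like cluster (356 CPM). Cst7 had another pattern, with its highest spleen level in the follicular helper-like cluster led by Sostdc1 and Pdcd1 (166 CPM), where Gzmb was at 0 UMIs, and its highest brain level in the Eomes-led cluster (162 CPM).

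**Figure D3:**
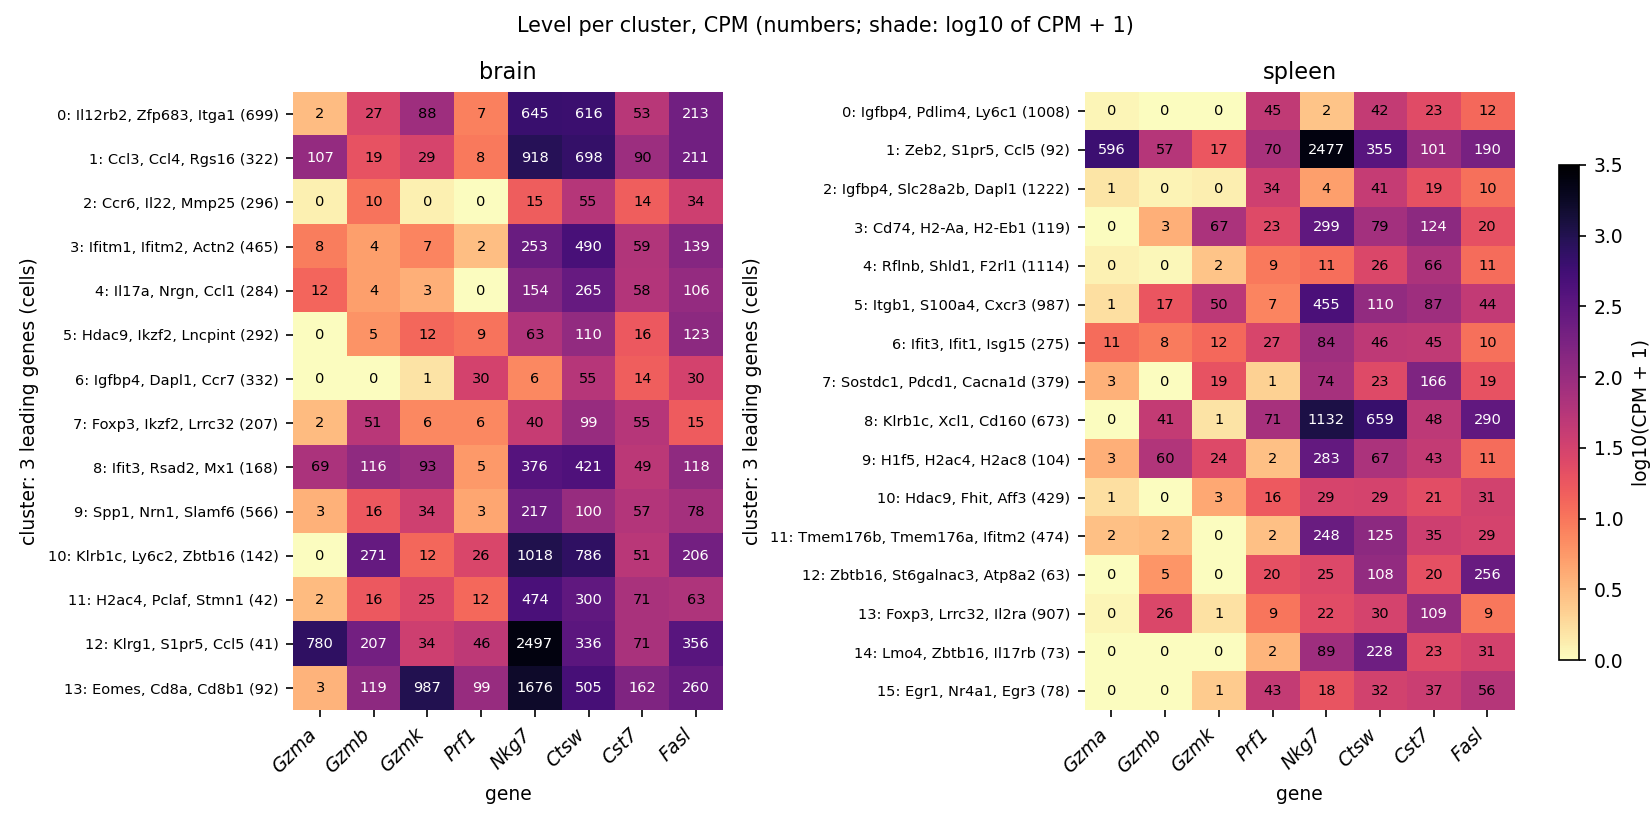
Level of each gene (columns) in each cluster (rows, named by the 3 leading genes and the number of cells) in brain (left) and spleen (right), as CPM printed in the cells and shaded by log10(CPM + 1). Gzma peaks in the Klrg1 and S1pr5 row of brain and the Zeb2 and S1pr5 row of spleen, Gzmb in the Klrb1c row of brain, and Gzmk in the Eomes row of brain.

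The genes found beside each granzyme were compared at 3000 UMIs per cell. Gzma cells carried Klrd1, an NK receptor subunit, in 46.7% against 9.60% of other cells in brain, and in 48.6% against 7.27% in spleen. They carried the transcription factor gene Zeb2 in 28.9% against 11.1% in brain, and in 45.7% against 2.09% in spleen. The spleen Gzma cells also had Cx3cr1 in 42.9% against 1.13% of other cells, where brain Gzma cells had it in 11.1% against 2.86%. Gzmb cells had the tissue-homing receptor gene Cxcr6 in 63.4% against 45.2% in brain and in 58.0% against 17.4% in spleen. Gzmb cells of spleen carried Foxp3 in 12.3% against 9.27% of other cells. Gzmk cells carried Eomes, a T-box factor of memory and cytotoxic cells, in 20.5% against 0.643% in brain and in 30.8% against 1.11% in spleen. Klrd1 was no more frequent in Gzmk cells, at 5.70% against 10.4% in brain and 1.87% against 7.55% in spleen. The T helper 17 cytokine gene Il17a was found in 1.01% of brain Gzmk cells and 0.893% of brain Gzmb cells, against 7.91% and 7.56% of the other cells. Spleen Gzmk cells had the follicle-homing receptor gene Cxcr5 in 16.8%, against 6.53% of other cells.

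Over the 30 clusters of at least 30 cells, the genes whose level was most like that of Gzma were Cx3cr1 (Pearson's r of log2(CPM + 10) 0.913), Smpdl3b (0.898), Ly6a2 (0.872) and S1pr5 (0.863). Those most like Gzmb were H2-Q7 (0.792), Hopx (0.791), Ccl5 (0.772) and Metrnl (0.743). Those most like Gzmk were Esm1 (0.840), Cd8a (0.806), Ppp2r2c (0.780) and Plscr4 (0.778). The clusters of a tissue share 1 library, and these values are descriptions. Esm1, which encodes a secreted proteoglycan, is the next protein-coding gene to Gzmk on chromosome 13 in the RefSeq table, where Gpx8, Gzma, Gzmk and Esm1 follow each other. Esm1 had 43.0 CPM in the Gzmk cells and 1.66 CPM in the other cells of brain, and 39.7 and 0.985 CPM in spleen. It had 184 CPM in the Eomes-led brain cluster, in 51.1% of its cells, and 0 UMIs in the spleen cluster with the highest Gzmk.

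The 3 granzymes were mostly found in separate cells. At 3000 UMIs per cell, 417 brain cells (11.2%) and 207 spleen cells (2.77%) had a granzyme UMI. Of the brain cells, 270 had Gzmk alone, 82 Gzmb alone and 29 Gzma alone. Gzmb and Gzmk were found together without Gzma in 20, Gzma and Gzmb without Gzmk in 8, Gzma and Gzmk without Gzmb in 6, and all 3 in 2. Without thinning, 35 of the 66 brain Gzma cells had Gzma alone, so the separation of Gzma moves with the depth. Of the spleen cells, 97 had Gzmk alone, 68 Gzmb alone and 26 Gzma alone, and the pairs were found in 7, 6 and 3 cells, with none that had all 3. Pairs were still more frequent than the product of the single shares gives. Gzma with Gzmb was found in 10 brain cells against 1.35 by that product, and in 6 spleen cells against 0.38. Gzmb with Gzmk was found in 22 brain cells against 8.97, and in 7 spleen cells against 1.16. Gzma with Gzmk was found in 8 brain cells against 3.60, and in 3 spleen cells against 0.502.

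Granzyme cells usually had Nkg7 and seldom Prf1. In brain, Nkg7 was found in 73.3% of Gzma cells, 82.1% of Gzmb cells and 79.5% of Gzmk cells, and in 38.2% of all cells. In spleen the shares were 62.9%, 75.3% and 62.6%, against 17.6% of all cells. Prf1 was found in 4.44% of the Gzma, 8.93% of the Gzmb and 7.38% of the Gzmk cells of brain, and in 17.1%, 13.6% and 9.35% of those of spleen. At 5000 UMIs per cell the Gzmb value was 16.9% in brain and 24.7% in spleen, so these shares move with the depth. Against the product of the single shares, Prf1 with Gzmb was found in 10 brain cells against 2.80 and in 11 spleen cells against 5.33. Prf1 with Gzmk was found in 22 brain cells against 7.45. Only Cst7 was found with Prf1 less often than the product among the pairs of Prf1 with other members, in 54 spleen cells against 70.4, and Ctsw with Cst7 was the other spleen pair below it, with 181 cells against 196. Nkg7 with Ctsw was found in 800 spleen cells against 240.0, and in 1081 brain cells against 662.

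TRAV11-TRAJ18 is the invariant alpha chain that marks NKT cells, lymphocytes that respond to lipids presented by CD1d. It was found with a beta chain in 122 brain cells and 655 spleen cells, and these were set against the other paired cells of the same tissue, 3008 in brain and 6082 in spleen. Median depth was 10372 UMIs in TRAV11-TRAJ18 cells and 10228 in other cells of brain, and 7375 and 7468 in spleen. The junction is shown because its letters identify the chain: the 3 most frequent junctions differed at position 12 only, counted from the first base of CDR3 and given in capitals.
Junction with C, 45 of 122 brain and 250 of 655 spleen cells: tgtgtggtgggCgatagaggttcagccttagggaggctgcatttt
Junction with G, 31 brain and 185 spleen cells: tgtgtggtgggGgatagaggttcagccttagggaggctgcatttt
Junction with A, 16 brain and 94 spleen cells: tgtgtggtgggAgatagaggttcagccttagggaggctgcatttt

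Gzmb was higher and Gzmk lower in these cells in both tissues. The Gzmb level was 324 CPM in TRAV11-TRAJ18 cells and 20.2 CPM in other cells of brain, a ratio of 16.1 (14.2 to 18.2), with a UMI in 35 of 122 cells (28.7%) against 3.92%. In spleen it was 39.0 CPM in TRAV11-TRAJ18 cells and 9.33 CPM in other cells, a ratio of 4.18 (3.53 to 4.94), with a UMI in 6.56% against 1.22% of cells. These cells held 31.6% of the brain and 29.2% of the spleen Gzmb UMIs, at 3.12% of brain and 8.27% of spleen cells. Gzmk was at 12.3 CPM against 51.7 CPM in brain, a ratio of 0.237 (0.135 to 0.387). In spleen Gzmk was at 0.573 CPM (3 UMIs) in TRAV11-TRAJ18 cells and 11.9 CPM in other cells, a ratio of 0.0483 (0.00993 to 0.142). Gzma had 0 UMIs in the 122 brain cells, which at the limit of 3 counts allows a share of cells with a UMI of up to 2.46%, and 10.3 CPM in other cells. Its level was at least 4.49-fold lower, taking 3 UMIs over the group as the limit. In several alternatives the other cells fell under 10 CPM and the call was not made. These left out clusters led by Cx3cr1, cells with a Cd8a, Cd8b1, Ncr1 or Trdc UMI, or the top cell, or took clonotypes of 1 cell. In spleen Gzma was below the 10 CPM minimum in both groups, at 4.78 and 4.95 CPM, and 23 of its 25 UMIs in TRAV11-TRAJ18 cells came from 1 cell.

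Most of the other members were higher in TRAV11-TRAJ18 cells. Prf1 was at 29.9 CPM against 9.18 CPM in other cells of brain (ratio 3.26, 2.27 to 4.56) and at 62.5 CPM against 19.5 CPM in spleen (3.21, 2.82 to 3.64). Nkg7 was at 1039 CPM against 378 CPM in brain (2.75, 2.60 to 2.91) and at 1025 CPM against 143 CPM in spleen (7.17, 6.92 to 7.43). Ctsw was at 768 CPM against 339 CPM in brain (2.27, 2.13 to 2.42) and at 615 CPM against 59.8 CPM in spleen (10.3, 9.79 to 10.8). The Nkg7 level of TRAV11-TRAJ18 cells was thus close in both tissues. Their Ctsw level was higher in brain (interval 722 to 818 CPM) than in spleen (594 to 637 CPM). In other cells both genes were higher in brain. Fasl was at 199 CPM against 124 CPM in brain (1.61, 1.41 to 1.82) and at 260 CPM against 20.5 CPM in spleen (12.7, 11.7 to 13.8). Cst7 was at 52.9 CPM against 53.1 CPM in brain, a ratio of 0.996 (0.771 to 1.27), and at 44.9 CPM against 62.5 CPM in spleen, a ratio of 0.719 (0.627 to 0.821).

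By the rule of calls, 5 of 8 members were higher and 2 lower in TRAV11-TRAJ18 cells of brain, against 8.36% and 9.85% of all genes. In those of spleen 5 of the 7 members over the minimum were higher and 1 lower, against 13.3% and 8.58%. TMM and median-of-ratios scaling each moved the spleen ratios by -0.13 on the log2 scale, and Cst7 was then called lower, at 0.657 and 0.659. TRAV11-TRAJ18 cells held 52.0% of the spleen Fasl UMIs, 48.6% of the Ctsw, 40.8% of the Nkg7 and 23.5% of the Prf1 UMIs. Whether the ratios differ between the tissues was not tested.

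**Figure D4:**
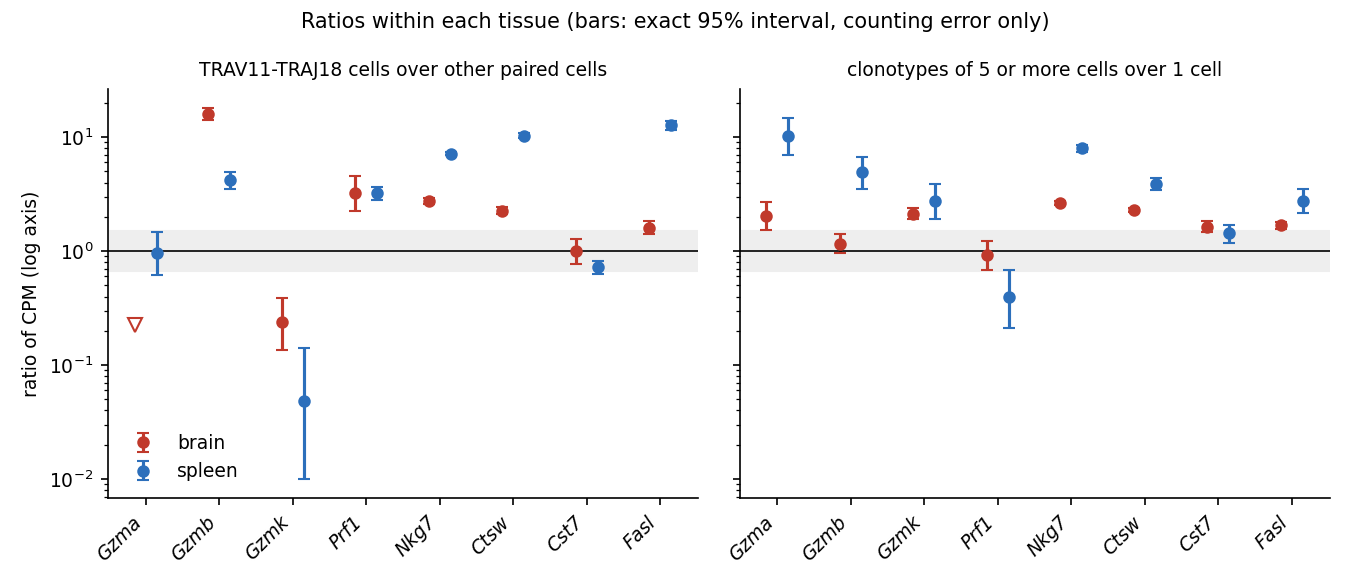
Ratio of CPM (log axis) within brain (left point of each pair) and spleen (right point) with exact 95% intervals: TRAV11-TRAJ18 cells over other paired cells on the left, clonotypes of at least 5 cells over those of 1 cell on the right. The grey band is under 1.5-fold and the open triangle is the limit for brain Gzma at 0 UMIs, 0.223. Gzmb stands at 16.1 in brain and Gzmk at 0.0483 in spleen in the left panel, and the right panel has Gzma at 10.2 and Prf1 at 0.396 in spleen.

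Clone size was read from paired receptors without TRAV11-TRAJ18 cells. Expanded clonotypes of at least 5 cells, 64 in brain with 725 cells and 24 in spleen with 218 cells, were set against clonotypes of 1 cell, 1726 in brain and 5342 in spleen, called single cells here. By the rule of calls, with Prf1 of brain under the minimum, 6 of 7 members were higher in expanded cells of brain and 0 lower, against 5.49% and 3.61% of all genes. In spleen 6 of 8 were higher and 1 lower, against 15.5% and 5.58%. TMM and median-of-ratios scaling moved the spleen ratios by -0.23 and -0.22 on the log2 scale.

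Gzmk and Nkg7 were higher in expanded cells of both tissues. Gzmk had 81.2 CPM in expanded and 37.9 CPM in single cells of brain, a ratio of 2.14 (1.92 to 2.39), and 24.1 and 8.74 CPM in spleen (ratio 2.76, 1.91 to 3.87). Nkg7 had 603 CPM in expanded and 228 CPM in single cells of brain (2.64, 2.53 to 2.75), and 791 and 99.2 CPM in spleen (7.97, 7.47 to 8.50). Without the largest clonotype, the spleen Nkg7 ratio was 4.76. Ctsw had 525 CPM in expanded and 227 CPM in single cells of brain (2.31, 2.21 to 2.41), and 202 and 52.4 CPM in spleen (3.86, 3.41 to 4.34), where the ratio was 2.17 without the largest clonotype. Fasl had 162 and 96.0 CPM in brain (1.69, 1.57 to 1.82), and 51.5 and 18.7 CPM in spleen (2.76, 2.16 to 3.48). The spleen Fasl ratio was 1.71 without the largest clonotype and 1.15, not called, with the TRAV11-TRAJ18 cells kept. Cst7 had 71.2 and 43.3 CPM in brain (1.64, 1.47 to 1.83), and 85.4 and 59.7 CPM in spleen, where the ratio of 1.43 (1.19 to 1.71) did not meet the rule.

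Gzma and Gzmb depended on a few clonotypes. Gzma had 12.8 CPM in expanded and 6.30 CPM in single cells of brain, a ratio of 2.03 (1.53 to 2.68). The ratio was 1.28, not called, without the clonotype with most Gzma UMIs, 1.36 without the clusters led by Cx3cr1, and 1.08 with each clonotype weighted equally. In spleen Gzma had 26.7 CPM in expanded and 2.61 CPM in single cells, a ratio of 10.2 (6.97 to 14.8), from 41 UMIs in 7 expanded cells. It was 6.81 without the largest clonotype and 1.57, not called, without the clusters led by Cx3cr1. Gzmb had 21.0 CPM in expanded and 18.0 CPM in single cells of brain, a ratio of 1.17 (0.959 to 1.41). That ratio was 0.417 and called lower at 10 cells or more, and 1.63 and called higher without cells with a Cd8a, Cd8b1, Ncr1 or Trdc UMI. In spleen Gzmb had 30.6 CPM in expanded and 6.22 CPM in single cells, a ratio of 4.92 (3.53 to 6.73). It was 1.86 without the clonotype with most Gzmb UMIs, 2.33 without the top cells, and 0.547, not called, at 10 cells or more. Prf1 had 9.09 and 9.88 CPM in brain, under the minimum, and 8.47 CPM in expanded and 21.4 CPM in single cells of spleen, a ratio of 0.396 (0.210 to 0.681). The spleen Prf1 ratio was 0.166 without the largest clonotype and 0.717, not called, at 10 cells or more.

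Over the size classes of 1, 2 to 4, 5 to 9 and at least 10 cells, brain Gzmk had 37.9, 56.5, 66.6 and 91.7 CPM. Without the clonotype with most Gzmk UMIs in each class, the 3 larger classes had 50.8, 46.3 and 64.5 CPM, so the order among them rests on single clonotypes. Brain Gzmb had 18.0, 25.7, 39.6 and 7.49 CPM, lowest in the largest clonotypes, and 18.8, 24.7 and 5.55 CPM in the 3 larger classes without the top clonotype of each. Brain Gzma had 6.30, 19.4, 5.02 and 18.4 CPM, with no order, and 9.98, 2.93 and 10.4 CPM without those clonotypes. In spleen Gzma had 2.61, 20.7, 21.1 and 35.7 CPM, and all Gzma UMIs of the largest class came from 1 of its 3 clonotypes. Without the top clonotype of each, the classes of 2 to 4 and 5 to 9 cells had 6.39 and 1.10 CPM. Spleen Gzmb had 6.22, 33.0, 47.5 and 3.40 CPM, with 18.3 and 17.0 CPM in the same classes without the top clonotype, and spleen Gzmk 8.74, 39.1, 21.1 and 28.9 CPM, with 34.1 and 13.6 CPM in those classes without it. Spleen Nkg7 had 99.2, 351, 480 and 1292 CPM, with 89.9% of the UMIs of the largest class from 1 clonotype, and 431 CPM in that class without it.

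**Figure D5:**
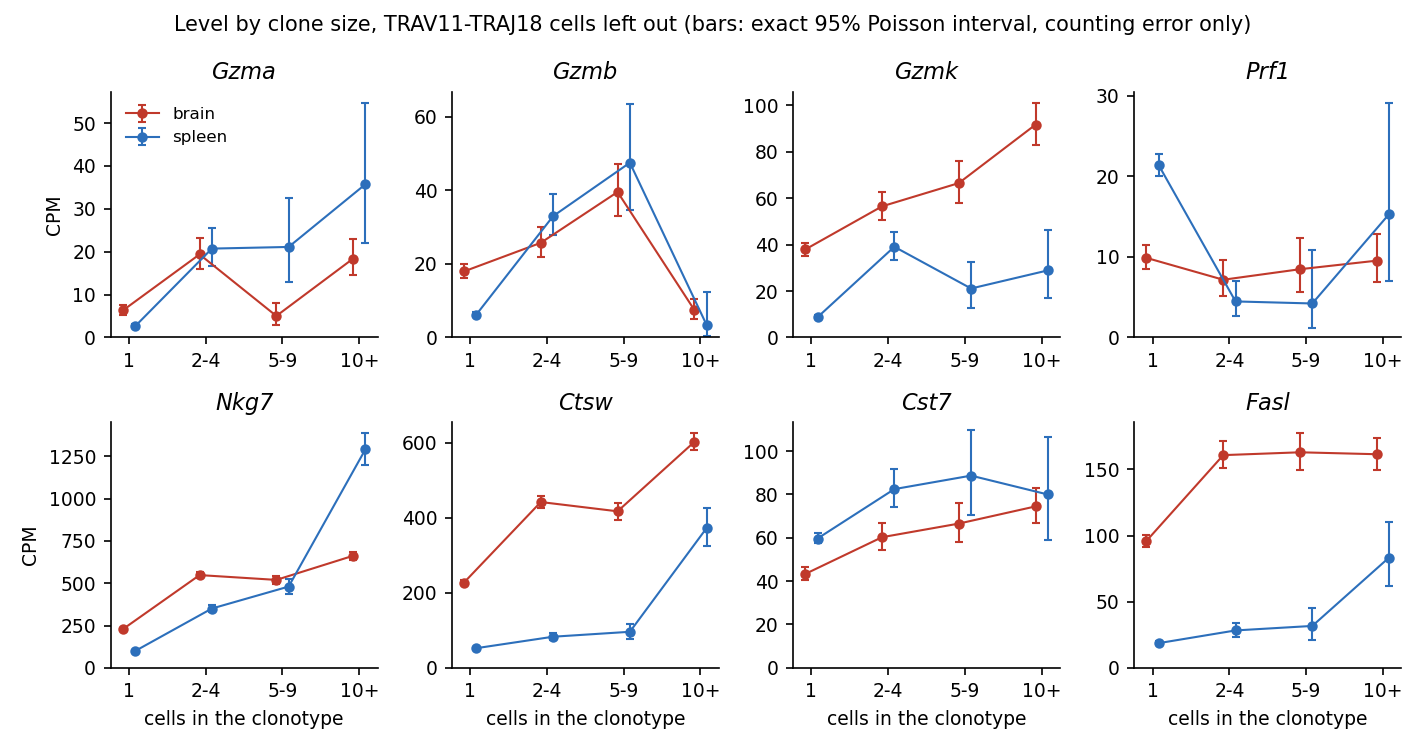
Level in CPM by cells in the clonotype (1, 2 to 4, 5 to 9, at least 10) for each of the 8 genes in brain and spleen, without TRAV11-TRAJ18 cells, with exact 95% Poisson intervals. Brain Gzmk lies at 37.9 CPM in the smallest and 91.7 CPM in the largest class, or 64.5 CPM there without 1 clonotype, and Gzmb of the largest class lies at 7.49 CPM for brain and 3.40 CPM for spleen.

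Single clonotypes differed widely. Of the 64 expanded brain clonotypes, 11 had a Gzma UMI, 16 a Gzmb UMI, 30 a Gzmk UMI, 59 Nkg7, 63 Ctsw and 64 Fasl. Of the 24 expanded spleen clonotypes, 3 had Gzma, 5 Gzmb, 7 Gzmk, 11 Nkg7, 13 Ctsw, 24 Cst7 and 10 Fasl. The largest brain clonotype, of 67 cells and none in spleen, had 115 CPM of Gzmk with a UMI in 38 cells, and an Ifng UMI in 59 cells. A brain clonotype of 48 cells with Il17a in 20 had 0 UMIs of Gzma, Gzmb, Gzmk and Prf1, beside 607 CPM of Nkg7. The expanded brain clonotype with most Gzmk UMIs (127) had 12 cells, 10 of them with Eomes, 1152 CPM of Gzmk, and a Cd4 UMI in 9 cells. That with most Gzmb UMIs (50) had 7 cells, with 488 CPM of Gzmb in 3 and 439 CPM of Gzmk in all 7. Both had no Cd8a UMI. The expanded spleen clonotype with most Gzmb UMIs had 448 CPM in 2 of its 8 cells and 2421 CPM of Nkg7. A pair of spleen clonotypes of 10 and 9 cells had 9 cells each in the follicular helper-like cluster and 0 UMIs of all members other than Cst7.

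The largest spleen clonotype, of 60 cells, was also the second largest of brain, with 57 cells, and so allowed the same receptor to be compared in both tissues. It had 93.6 CPM of Gzmk in brain and 29.3 CPM in spleen, and 766 and 445 CPM of Ctsw. Gzma was at 26.0 CPM in brain, from 2 cells, and 51.4 CPM in spleen, from 4 cells. Nkg7 was at 1039.9 CPM in its brain cells and 1668 CPM in its spleen cells. The second largest spleen clonotype, of 15 cells, shared its alpha chain junction and its beta chain V and J genes, and is shown with it because the beta junctions, of 42 bases, differed at 5 positions, given in capitals.
Alpha chain of both (TRAV7-5, TRAJ32): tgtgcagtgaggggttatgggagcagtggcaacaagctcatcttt
Beta chain of the largest spleen clonotype (TRBV26, TRBJ1-5): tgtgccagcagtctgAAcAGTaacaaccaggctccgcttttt
Beta chain of the second largest (TRBV26, TRBJ1-5): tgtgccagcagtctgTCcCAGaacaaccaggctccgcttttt

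The second clonotype had 48.2 CPM of Gzmk, 742 CPM of Nkg7 and 0 UMIs of Gzma in spleen. In 17 clonotypes, each found in 3 or more cells of brain and of spleen (169 brain and 149 spleen cells), Gzmk had 84.6 CPM in brain, against 37.0 CPM in spleen (ratio 2.29, 1.62 to 3.30). Ctsw had 537 CPM in brain, against 260 CPM in spleen (ratio 2.06, 1.81 to 2.36). Fasl had 130 CPM in brain, against 63.4 CPM in spleen (ratio 2.04, 1.56 to 2.70), and was higher in brain in 16 of the 17 clonotypes. Nkg7 had 763 CPM in brain, against 1105 CPM in spleen (ratio 0.690, 0.639 to 0.745), which did not meet the 1.5-fold limit. Of the clonotypes, 6 had more Nkg7 in brain and 8 more in spleen. The largest spleen clonotype gave 600 of the 1424 Nkg7 UMIs in brain and 682 of the 1254 in spleen. Cst7 was lower in brain, at 46.6 against 72.2 CPM (0.645, 0.472 to 0.883). Gzma had a ratio of 1.53 (1.07 to 2.21) from 3 clonotypes higher in brain, 2 higher in spleen and 12 at 0 in both. With at least 1 cell in each tissue (188 clonotypes) the Gzma ratio was 0.609, so its direction depended on which clonotypes counted. Gzmb had a ratio of 1.42 (0.932 to 2.20).

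Related genes were read from lists of the granule pathway, counted by the same rule, by which 9.79% of all genes were higher and 8.67% lower in brain. Of 6 other granule proteases and activators tested between the tissues, Srgn alone was higher in brain, at 1331 CPM against 729 CPM (it encodes serglycin, the proteoglycan that packs granzymes in the granule), and none was lower. The other granzyme genes Gzmc, Gzmd, Gzme, Gzmf, Gzmg, Gzmm and Gzmn stayed under 10 CPM. Of 15 granule exocytosis genes, 3 were higher in brain and 0 lower. These were Stx11, a syntaxin needed for granule fusion (ratio 1.55), Vamp2 (1.65) and Tmem163 (3.59). Of 10 listed inhibitors, with Bcl2 and Cflar counted among them, 3 were higher and 1 lower. Serpinb9, the inhibitor of granzyme B, had 55.5 CPM in brain and 30.1 CPM in spleen, Serpinb1a 55.5 and 11.8 CPM, and Serpina3f 8.04 and 19.4 CPM. Of 15 listed transcription factors, 7 were higher and 5 lower. This list also held factors of other T cell states, such as the naive marker Tcf7 and the follicular helper marker Bcl6. Its counts therefore have no single direction. Nfil3 had 71.2 CPM in brain and 5.67 CPM in spleen, Zeb2 50.6 and 14.0 CPM, and Id3 12.3 and 47.9 CPM. Of 16 surface receptors and chemokines, a list that also held the cytokine gene Ifng, 8 were higher and 2 lower. Ifng had 316 and 21.1 CPM, and Ccl4 had 68.4 and 1.36 CPM. Of 9 death ligands and receptors, 5 were higher and 1 lower. Tnf had 174 CPM in brain and 35.4 CPM in spleen, and Fas, the receptor of Fas ligand, was lower in brain, at 26.3 against 41.7 CPM. The medians of these 6 lists lay between -0.05 and 0.95 on the log2 scale, and that of all genes at -0.09.

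In TRAV11-TRAJ18 cells, the shares of all genes called were 8.36% higher and 9.85% lower in brain and 13.3% and 8.58% in spleen. There Lyst, whose loss causes giant granules in Chediak-Higashi syndrome, was the exocytosis gene with the highest ratio in both tissues, at 848 CPM against 131 CPM in other cells of brain and 648 against 88.0 CPM in spleen. It was the only 1 of 15 tested in brain and of 14 in spleen that was higher, with 2 lower in brain and 0 in spleen. Of 10 listed inhibitors, 5 were higher in each tissue, with 2 lower in brain and 1 in spleen. Serpinb9 had 150 CPM against 50.9 CPM in brain and 106 against 22.4 CPM in spleen. Of the surface receptors and chemokines, 12 of 16 were higher in brain and 13 of 15 in spleen, with 2 lower in each, and Klrd1 had 124 CPM against 51.9 CPM in brain and 158 against 26.0 CPM in spleen. Of the transcription factors, 3 of 15 were higher and 7 lower in brain, and 6 of 14 were higher and 5 lower in spleen. Tbx21, which encodes T-bet, had 139 CPM against 64.6 CPM in brain and 199.9 against 26.3 CPM in spleen, while Eomes had 0 UMIs in those of brain and 4 UMIs in those of spleen (ratio 0.0637, 0.0173 to 0.164).

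In expanded cells, the shares of all genes called were 5.49% higher and 3.61% lower in brain and 15.5% and 5.58% in spleen. Gzmm, which encodes granzyme M, had 23 UMIs in expanded cells of spleen and 50 UMIs in the far more numerous single cells, a ratio of CPM of 12.9 (7.49 to 21.5). It was among 5 of 7 other proteases and activators that were higher there, with 0 lower, and in brain 1 of 6 was higher (Ctsd) and 0 lower. Exocytosis genes were higher in 2 of 15 in brain and 5 of 15 in spleen, with 0 lower, among them Stx11 with 49.2 against 25.7 CPM in brain and 63.9 against 17.8 CPM in spleen. Of the inhibitors, 2 of 9 were higher in brain and 7 of 10 in spleen, with 0 lower. Serpinb1a had 78.8 against 42.9 CPM in brain and 65.2 against 8.55 CPM in spleen. Of the 15 transcription factors, 6 were higher and 4 lower in brain, and 10 were higher and 2 lower in spleen. Zeb2 had 83.8 CPM in expanded and 27.3 CPM in single cells of brain and 122 and 8.06 CPM in spleen. Of the surface receptors and chemokines, 12 of 14 were higher in brain and 0 lower, and 15 of 16 were higher and 1 lower in spleen.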

How the data were processed

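RNA and T cell receptor libraries were prepared with a 5' droplet kit, per the labels' protocols. Per the submitters' processing notes, Cell Ranger 9.0.0 was used, and several genome builds are listed there without a role, so no coordinates of the authors' processing are given. The authors deposited whole UMI counts per gene and barcode, and per-contig receptor calls with their counts of UMIs. PCR and capture make counts of UMIs a sample of the transcripts, so intervals cover counting error only. The deposited barcodes numbered 4277 in brain, with 44386447 UMIs, and 8707 in spleen, with 65191435 UMIs.

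A barcode was kept if it had 500 genes and 1000 UMIs or more and no more than 10% of UMIs from mitochondrial genes (4143 brain and 8474 spleen). Barcodes in which over 1 TRB or over 2 TRA chains were productive were left out as doublets (179 brain and 315 spleen), and no doublet caller was run. Barcodes with a UMI of at least 4 of 7 B cell or 4 of 8 myeloid markers were left out (16 brain and 162 spleen). This replaced a planned removal by cluster. Clonotypes joined paired cells by V gene and CDR3 nucleotides of TRB and of the TRA with most UMIs, and TRAV11-TRAJ18 cells were those with a productive TRA of TRAV11 or TRAV11D with TRAJ18. Each library was clustered without the 8 genes (2000 variable genes, 30 principal components, 15 neighbours, Leiden resolution 0.8) in scanpy 1.11.5 and igraph 0.11.9 under Python 3.11.15. Clusters called X-like had at least 3 markers of a list higher than in the other cells, with markers of that list among their leading genes. Not every cluster with 3 higher markers was named.

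Ratios of summed counts have exact conditional binomial (Clopper-Pearson) 95% intervals from scipy 1.17.1, levels exact Poisson intervals and shares exact binomial intervals. A count of 0 was taken to allow 3 counts. The rule of calls was tested on simulated counts with counting error only, which leaves out the concentration of a gene's UMIs in few cells. Alternatives covered scaling (TMM factors of edgeR 4.0.16 in R 4.3.3, and median-of-ratios factors), the limits of the rule, cells and clusters left out, the definition and minimum size of a clonotype, thinning depth and clustering. Named genes were the 8 members, up to 4 genes most like each granzyme, members of the gene lists, and the largest clonotypes and those with most granzyme UMIs. The members and lists were chosen with earlier results of these data known, and list genes and single cells were named after their values were seen. Leaving out top cells, the top clonotype of a size class, cells with CD8, NK or gamma-delta transcripts, or clusters, and keeping B and myeloid barcodes, were alternatives chosen after seeing the data. One listed symbol, of a transcription factor, was not matched.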

Additional observations from a re-analysis of the deposited data

How the results depend on the processing

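Of 563 alternative values of the member ratios, 541 kept their call. Ratios of 0 were not counted among them. This leaves out Gzma in brain TRAV11-TRAJ18 cells, which lost its call in the alternatives given below. In brain over spleen, Gzma alone lost its call among the alternatives that kept the 1.5-fold limit (2.01 with paired cells), with a range of 2.01 to 16.3, and the other 7 members kept theirs. For TRAV11-TRAJ18 cells of brain, the number of members lower was 1 without the clusters led by Cx3cr1, without CD8, NK or gamma-delta marked cells, against clonotypes of 1 cell and without the top cells, because the other cells fell under 10 CPM of Gzma. For those of spleen it was 2 with either scaling factor, where Cst7 was added, and 0 against clonotypes of 1 cell. For expanded cells of brain, 1 member (Gzmb) was lower at 10 cells or more or with TRAV11-TRAJ18 cells kept, and for those of spleen 0 were lower at 10 cells or more, where the Gzmb ratio turned to 0.547. The cause of these changes was not tested.

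In brain, the share of Gzma cells with Gzmk was 33.3% without thinning. At 5000 UMIs, Gzmb cells had Prf1 in 16.9% in brain and 24.7% in spleen. The largest share of a granzyme's UMIs in 1 cluster was 51.3% for brain Gzma at resolution 0.5 and 46.0% with another seed, and 41.2% for brain Gzmk at resolution 0.5. For spleen Gzmk it was 42.3% at resolution 1.2, 33.3% at 0.5 and 32.3% with another seed. With 1 cell in each tissue, the ratio of brain to spleen within shared clonotypes was 0.609 for Gzma, the reverse of its direction at 3 cells, 1.39 for Gzmk, 0.897 for Nkg7, 2.58 for Ctsw and 3.22 for Fasl. No paired analysis was possible because each tissue had 1 library and the labels give no replicate numbers. Gzma and Prf1 rest on few UMIs in the TRAV11-TRAJ18 and clone size comparisons, which limits them, and differences between animals cannot be told apart from those between tissues.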

Other observations

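Cells with a Foxp3 UMI, chosen after their values were seen and without a test, had less Nkg7 and Fasl than other cells in both tissues. Gzmb had 49.0 CPM in Foxp3 cells and 31.2 CPM in the other cells of brain, and 23.7 and 10.0 CPM in spleen. Of the Gzmb UMIs of Foxp3 cells, 2 cells held 52 of 146 in brain and 83 of 163 in spleen. Without them Foxp3 cells had 31.8 CPM in brain and 11.7 CPM in spleen. Cst7 had 60.4 CPM in Foxp3 cells and 52.5 CPM in the other cells of brain, and 107 and 52.9 CPM in spleen. Nkg7 was at 175 CPM in Foxp3 cells and 421 CPM in the other cells of brain, and at 27.4 and 244 CPM in spleen. Fasl was at 42.3 CPM in Foxp3 cells and 135 CPM in the other cells of brain, and at 9.32 and 47.9 CPM in spleen. Foxp3 cells held 23.3% of the spleen Gzmb UMIs, or 12.99% without those 2 cells, and 20.6% of the spleen Cst7 UMIs, at 11.9% of cells.

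Fasl was also high in a spleen cluster of 63 cells led by Zbtb16, in which 3.17% of cells had a receptor pair. Its cells had a median of 2642 UMIs, against 7190 over all spleen cells, and Cd3e was found in 41.3% and Cd4 in 27.0% of them. Fasl reached 256 CPM there, beside 24.7 CPM of Nkg7 and 0 UMIs of Gzma and Gzmk, where 3 UMIs over the cluster would be 14.8 CPM. In the spleen NKT-like cluster Fasl was at 290 CPM beside 1132 CPM of Nkg7.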
